A study of Oryza sativa with 6 samples.

Results

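The H3K9ac landscape of rice chromosomes was described from 1 ChIP-seq library, as the full list of its 26693 peaks out of the 82347 peaks listed for 6 histone marks in the series. A peak is a region in which the authors' caller found immunoprecipitated reads above background. Every peak of the library was used, without any filter. The chromatin came from leaves of 2-week-old greenhouse seedlings of the Nipponbare cultivar, untreated and without a mutation or transgene named in the labels, and was precipitated with a Millipore antibody against H3K9ac. H3K4ac, H3K27ac, H3K27me3, H3K9me1 and H3K9me3 were profiled in the same material with 1 library each and are used here only as a background. Since each mark had 1 library, no test between samples was possible and no value below has a replicate check. All ranges given in parentheses are 95% intervals, from binomial order statistics for medians and by the Wilson method for shares. They cover counting error only, and peaks are not replicates of a condition.

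H3K9ac is the acetylation of lysine 9 on the tail of histone H3. It is written by histone acetyltransferases of the GCN5 type, removed by histone deacetylases, and in plants is found mainly around the transcription start sites of active genes. The dimethylated form of the same lysine marks silent transposons, which are concentrated in the gene-poor chromatin around plant centromeres. In rice, the short arms of chromosomes 4 and 10 are known from cytology to be largely heterochromatic. Different histone acetylation marks usually lie together near active promoters, whereas H3K27me3, placed by Polycomb complexes, marks repressed genes.

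The list behaved as that of an acetylation mark when set beside the other 5. An H3K4ac peak overlapped 85.2% of the H3K9ac peaks by at least 1 bp (84.7 to 85.6%), and an H3K27ac peak overlapped 33.8% (33.2 to 34.3%). H3K27me3 overlapped 12.3% (11.9 to 12.7%), H3K9me3 1.37% (1.24 to 1.52%) and H3K9me1 1.19% (1.07 to 1.33%). The overlaps also depend on the length of each list and on the unknown depth of each library.

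Together the H3K9ac peaks covered 26.1 Mb. The lists name no genome build, so the extent of a chromosome was taken to run from base 1 to the last base under a peak in any of the 6 lists. The extents summed to 373 Mb over 12 chromosomes. On this base there were 71.5 peaks per Mb, and 7.00% of the extents was covered. The score that the caller gave each peak ranged from 50.0 to 1817 with a median of 132 (131 to 134). The 2670 lowest-scoring peaks, about 10% of the list, did not exceed 59.8, so that many peaks lay close to the lower end.

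H3K9ac was most frequent on chromosomes 3, 1 and 2 and least frequent on chromosomes 12 and 11. Chromosome 3 had 86.4 peaks per Mb, chromosome 1 had 81.9 and chromosome 2 had 81.3. Chromosomes 6, 7 and 5 followed with 71.5, 71.0 and 70.2 peaks per Mb. Chromosomes 9, 4, 8 and 10 were close to each other, at 66.8, 66.2, 65.7 and 64.8, and chromosomes 11 and 12 closed the order at 60.0 and 59.7. The 12 chromosomes thus fell into a leading group of 3 long chromosomes, a broad middle and a trailing pair. The covered share had a similar order, with 8.80% of chromosome 3 and 5.50% of chromosome 12 under a peak. The densest chromosome had 1.45 times as many peaks per Mb as the sparsest.

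Each chromosome was divided from base 1 into bins of 500 kb, and a peak was counted in the bin that held its midpoint. The last partial bin of each chromosome was left out, which left 741 full bins and set aside 275 peaks. No full bin was without an H3K9ac peak. The median bin held 35 peaks (34 to 37), with quartiles at 27 and 45 and a lowest and a highest bin at 3 and 69. A median of 32710 bp (31400 to 34393) of a bin was covered, or 6.54% of its length, and the covered length ran between 2480 bp, 0.496% of a bin, and 70732 bp, 14.1% of a bin. The number of peaks and the covered length ordered the bins almost alike, with a Spearman's rho of 0.966 over the 741 bins. Neighbouring bins resembled each other, with a rho of 0.744 over 729 adjacent pairs. Both correlations describe bins of 1 library.

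**Figure D1:**
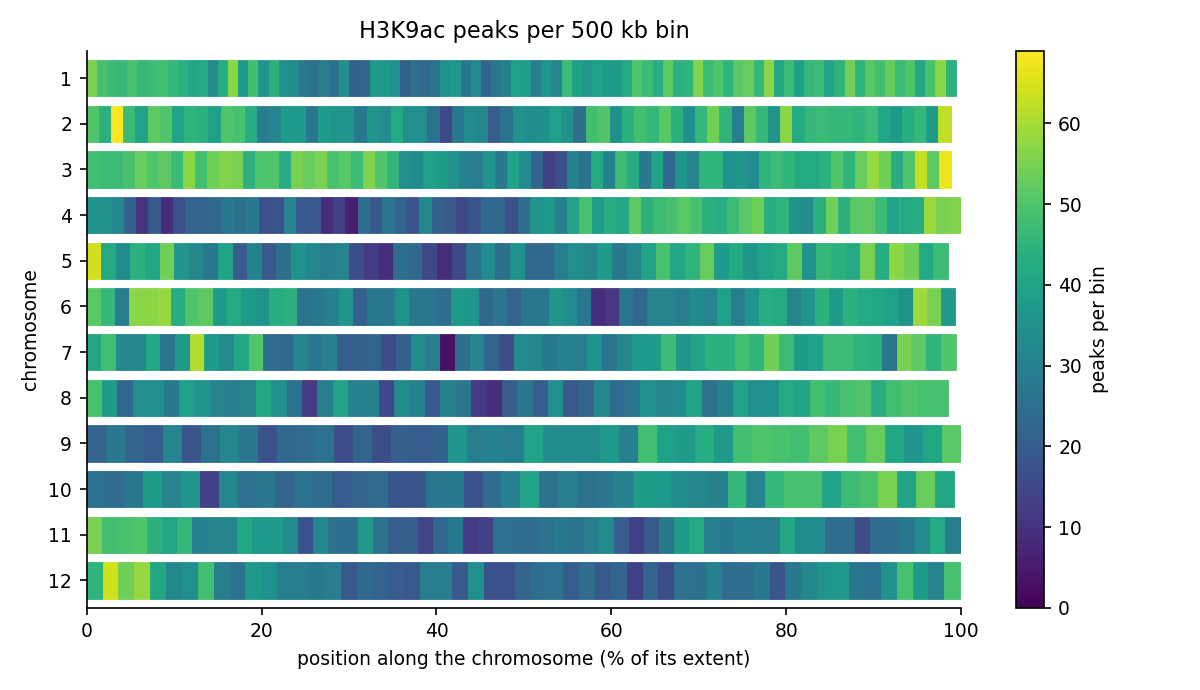
H3K9ac peaks in each full 500 kb bin (colour, number of peaks per bin) along the 12 chromosomes, with position given as a percentage of each chromosome's extent. Bins with few peaks lie mostly in the inner part of the chromosomes, and chromosome 4 is sparse up to about its middle, with 42.1 peaks per Mb before the midpoint and 90.2 after it.

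The mark thinned out towards the interior of the chromosomes. When every chromosome was divided into 10 equal segments, the median over the 12 chromosomes was 94.5 peaks per Mb in the first segment and 69.6 in the second. It was 58.0, 47.3, 48.9 and 59.0 in the next 4 segments. Beyond them it was 72.9, 82.8, 90.5 and 94.1. The lowest medians thus lay in segments 4 and 5. With the peaks of all chromosomes pooled, there were 83.3 peaks per Mb in the first segment and 92.2 in the last, and single chromosomes differed widely at their ends. In single chromosomes the segment with the fewest peaks was between the third, on chromosome 4, and the seventh, on chromosome 12. It held 33.7 peaks per Mb on chromosome 5 and 55.7 on chromosome 1. The ratio of the densest to the sparsest segment was lowest on chromosome 1, at 1.77, and highest on chromosome 5, at 2.86. Centromere positions were not used here, so the sparse segments cannot be set against them.

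The 2 ends differed most on chromosomes 4, 9, 10 and 11. On chromosome 4 each of the first 5 segments held between 34.6 and 47.0 peaks per Mb, and the last 5 held between 73.2 and 98.0. Its first end, at 45.9 peaks per Mb in the outermost segment, was therefore as sparse as its interior. The outermost first segment was also the lower end on chromosome 9, with 47.8 peaks per Mb, and on chromosome 10, with 60.4. Segments 3 and 4 of chromosome 9 held fewer still, and so did segments 2 to 6 of chromosome 10. The segments at the other end of these chromosomes held 98.0 peaks per Mb on chromosome 4, 85.6 on chromosome 9 and 99.2 on chromosome 10. Densities before and after the midpoint were 42.1 and 90.2 peaks per Mb on chromosome 4, 48.2 and 85.3 on chromosome 9, and 50.6 and 79.1 on chromosome 10. On chromosome 11 the last segment was the lower end, with 61.7 peaks per Mb compared with 96.1 in the first. It was nevertheless above the 60.0 peaks per Mb of the whole chromosome. Each of the last 5 segments there held between 50.3 and 61.7. More peaks before the midpoint than after it were found on chromosomes 3, 6, 11 and 12, with 91.6 and 81.1 peaks per Mb on chromosome 3, 73.2 and 69.7 on chromosome 6, 63.2 and 56.8 on chromosome 11 and 63.7 and 55.6 on chromosome 12. The other 8 chromosomes held more peaks after it.

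**Figure D2:**
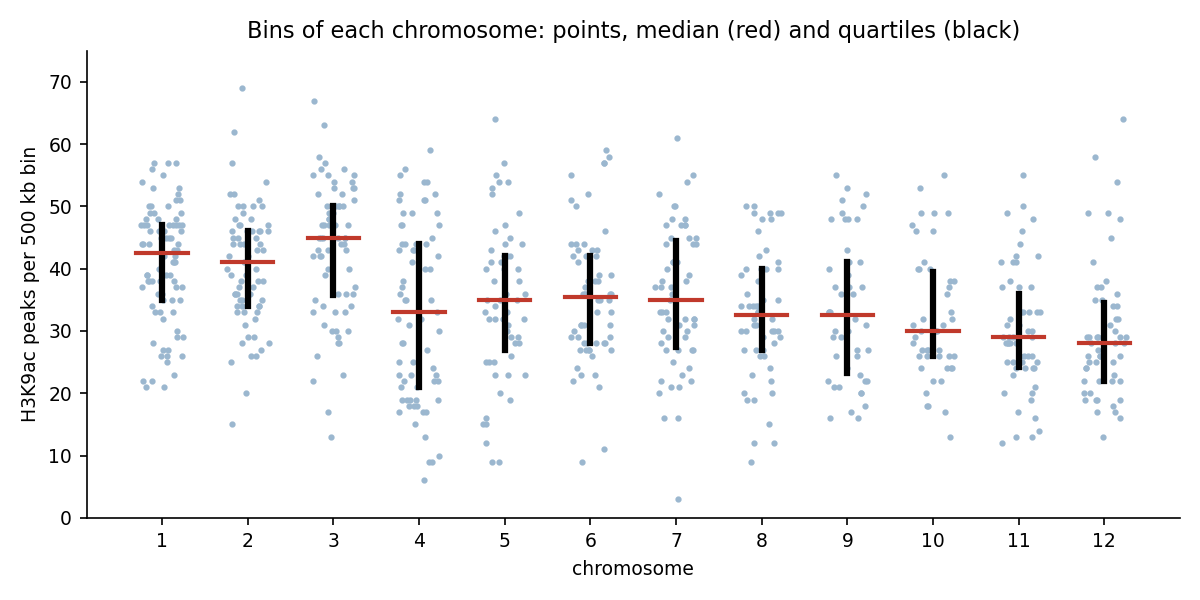
Number of H3K9ac peaks in each full 500 kb bin (points, spread sideways at random for legibility) on each of the 12 chromosomes, with the median in red and the quartiles as a black bar. Medians run between 28 peaks on chromosome 12 and 45 on chromosome 3, and the bins of chromosome 4 spread most widely, with quartiles at 21 and 44.

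Bins varied widely within chromosomes. A chromosome value is taken over many bins, so a wider spread of bins than of chromosomes follows largely from their size. The median bin held 45 peaks on chromosome 3, 42.5 on chromosome 1 and 41 on chromosome 2, compared with 29 on chromosome 11 and 28 on chromosome 12. On chromosome 4 the median was 33, near that of the whole list, while the quartiles lay at 21 and 44. A bin was called sparse when it held 21 peaks or fewer, the 10th percentile of all bins, and dense when it held 50 or more, the 90th percentile. There were 84 sparse bins with 1387 peaks among the 741 full bins. They made up 19 of the 71 bins of chromosome 4 and 11 of the 55 of chromosome 12. On chromosomes 9 and 11 they made up 8 of 46 and 10 of 58. Chromosomes 1, 2 and 3 had 2 sparse bins each, among 86, 71 and 72 bins. There were 93 dense bins with 5022 peaks. They made up 23 of the 72 bins of chromosome 3, 14 of the 86 of chromosome 1 and 11 of the 71 of chromosome 2. Chromosome 4 had 10 dense bins among its 71, a share close to the 93 of 741 over all chromosomes. Its share of sparse bins was the highest of the 12 chromosomes.

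The 5 bins with the most peaks were at or near chromosome ends. The bin chr2:1000001-1500000 held 69 peaks over 55347 bp, and 42 of the 68 distances between them were over 5 kb. This bin led by number rather than by strength, as its peaks had a median width of 764 bp and a median score of 105, both below the medians of the list. It was followed by chr3:35500001-36000000 with 67 peaks, chr5:1-500000 and chr12:500001-1000000 with 64 each, and chr3:34500001-35000000 with 63. The most covered bases were found in chr2:35000001-35500000, near the other end of chromosome 2, where 62 peaks covered 70732 bp. Its peaks had a median width of 997 bp and a median score of 160, and 58 of the 62 overlapped an H3K4ac peak and 32 an H3K27ac peak. The next most covered bins were chr12:500001-1000000 with 69909 bp, chr4:27000001-27500000 with 67858 bp, chr5:1-500000 with 67339 bp and chr1:33500001-34000000 with 67176 bp. The bin of chromosome 4 reached this length with only 54 peaks, which had a median width of 1064 bp. The bin of chromosome 1 stood apart in that 14 of its 57 peaks overlapped H3K27me3.

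On the other chromosomes the densest bins were chr4:34000001-34500000 and chr6:29500001-30000000 with 59 peaks each, and chr7:3500001-4000000 with 61. Then came chr9:19500001-20000000, chr10:21000001-21500000 and chr11:1-500000 with 55 each, and chr8:25000001-25500000 and chr8:26500001-27000000 with 50 each. Chromosome 1 had 3 bins of 57 peaks, at chr1:7000001-7500000, chr1:33500001-34000000 and chr1:42000001-42500000. With such ties included, a densest bin was centred in the first or last 10% of the extent on 10 of the 12 chromosomes, and the exceptions were chromosomes 7 and 9.

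The sparsest bin of the list was chr7:12000001-12500000, with 3 peaks over 2480 bp. All 3 overlapped H3K4ac and 2 overlapped H3K27ac, compared with 85.2% and 33.8% of all H3K9ac peaks. The next were chr4:10500001-11000000 with 6 peaks, and chr4:3000001-3500000, chr4:9500001-10000000 and chr5:10000001-10500000 with 9 each, as many as were found in chr6:18000001-18500000 and chr8:13000001-13500000. The peaks of these bins differed in strength. The 9 peaks of chr4:9500001-10000000 had a median score of 300, and each of them overlapped H3K4ac. The 9 peaks of chr4:3000001-3500000 had a median score of 95.4, and 6 of them overlapped H3K4ac. Elsewhere the sparsest bins were chr11:12500001-13000000 with 12 peaks, chr3:19000001-19500000, chr10:3000001-3500000 and chr12:17000001-17500000 with 13, chr2:14500001-15000000 with 15, chr9:6500001-7000000 with 16 and chr1:13000001-13500000 with 21. The sparsest bin was centred between 20 and 70% of the extent on 11 chromosomes. The exception was chromosome 10, where it was centred at 14.0%. Chromosomes 1, 5 and 9 had another bin with the same count.

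The sparse bins formed 51 separate runs and the dense bins 65. The longest runs of sparse bins were 2.5 Mb each and both lay on chromosome 4, at chr4:1500001-4000000 with 76 peaks and at chr4:8500001-11000000 with 66 peaks. They were followed by the 2.0 Mb runs chr4:14000001-16000000 with 73 peaks and chr9:7500001-9500000 with 78 peaks. In the first of these runs 2.72% of the bases was covered by H3K9ac, in the second 3.15%, in the third 3.23% and in the last 3.37%. H3K4ac was nearly as rare there, with 78, 66, 82 and 73 peaks, while H3K27me3 had 54, 21, 64 and 48. H3K27ac had 23, 33, 19 and 23 peaks, H3K9me1 had 26, 35, 25 and 27, and H3K9me3 had 30, 15, 11 and 15. Over all extents H3K9me1 had 13.4 peaks per Mb and H3K9me3 had 7.93. Only 1 run of at least 4 dense bins was present, at chr3:34000001-36000000, where 232 peaks covered 11.3% of 2.0 Mb. The counts of the other marks in this run were 225 for H3K4ac, 93 for H3K27ac, 67 for H3K27me3, 19 for H3K9me1 and 10 for H3K9me3. The runs were singled out after their values had been seen.

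The bins of the 2 other acetylation lists followed those of H3K9ac. Across the 741 bins Spearman's rho with the number of H3K9ac peaks was 0.96 for H3K4ac and 0.77 for H3K27ac, compared with 0.23 for H3K27me3, 0.10 for H3K9me1 and -0.07 for H3K9me3. With covered bases in place of peaks the values were 0.97, 0.83, 0.21, 0.03 and -0.18 in the same order. The median H3K4ac bin held 33 peaks and the median H3K27ac bin 12. No bin lacked either mark, whereas 23 bins lacked H3K9me3, 3 lacked H3K27me3 and 1 lacked H3K9me1. These lists differ in length and depth, and the values are descriptions without a test.

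Neighbouring H3K9ac peaks were mostly several kilobases apart. The distance was measured over the bases between the end of a peak and the start of the next on the same chromosome, for 26681 pairs. Its median was 8181 bp (8054 to 8297), with quartiles at 4446 and 15923 bp and extremes of 1 and 475861 bp. Of all pairs, 1431 or 5.36% (5.10 to 5.64%) were under 1 kb apart, 6392 or 24.0% (23.4 to 24.5%) were 1 to 5 kb apart and 18858 or 70.7% (70.1 to 71.2%) were over 5 kb apart. The interval from 5 to 10 kb alone held 7762 pairs, 29.1% of them. The medians within the classes were 338 bp, 3281.5 bp and 11734 bp. Distances over 5 kb made up 93.9% of the length between neighbouring peaks, or 326 Mb. The median distance was 8187 bp in the H3K4ac list, nearly that of H3K9ac, and 23700 bp in the shorter list of H3K27ac.

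**Figure D3:**
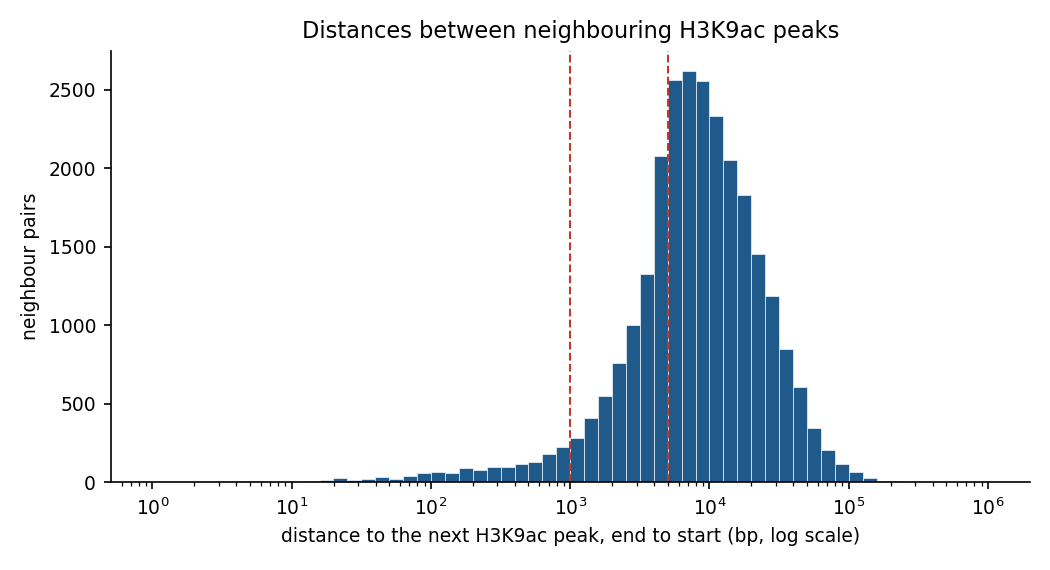
Histogram of the distance from the end of an H3K9ac peak to the start of the next (horizontal axis in bp on a log scale, vertical axis the number of neighbour pairs), with dashed lines at 1 and 5 kb. On this scale, where the bars widen with distance, the distribution has a single mode between 5 and 10 kb. Its tail below 1 kb holds 1431 of the 26681 pairs. Within this tail 150 pairs are under 50 bp apart and 541 are 500 to 1000 bp apart, so that the closest distances hold more pairs per base.

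The spacing of peaks differed moderately between chromosomes. The share of pairs under 1 kb was lowest on chromosome 9, at 4.30% (3.39 to 5.43%), and highest on chromosome 2, at 6.10% (5.28 to 7.02%). The share of 1 to 5 kb was lowest on chromosome 11, at 20.4%, and highest on chromosome 3, at 26.8%. The share over 5 kb was lowest on chromosome 3, at 67.7% (66.0 to 69.3%), and highest on chromosome 11, at 74.7% (72.6 to 76.6%). The median distance was shortest on chromosome 3, at 7377.5 bp (7146 to 7669), and longest on chromosome 11, at 9401.5 bp (8818 to 10056). On chromosome 4 the median distance, 8014.5 bp (7779 to 8473), was close to the 8181 bp (8054 to 8297) of the whole list, although only 66.2 peaks per Mb were listed there. Of the peaks of chromosome 4, 748 lay before its midpoint and 1601 after it, so this median rests mostly on the denser part. Its distances were not split at the midpoint.

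Close neighbours formed small groups. When peaks less than 1 kb apart were joined into runs, 23877 peaks stood alone, 1340 runs had 2 peaks, 44 had 3 and 1 had 4, so that 10.5% of the peaks (10.2 to 10.9%) had a neighbour within 1 kb. The run of 4 lay at chr2:3553377-3558190, over 4814 bp. Its peaks were 857, 568, 785 and 1145 bp wide and scored 163, 100, 72.5 and 72.8, with 634, 85 and 740 bp between them. The same place was covered by 3 H3K4ac peaks, 1 H3K27ac peak and 1 H3K27me3 peak. In the first runs of 3 along chromosome 1, at chr1:7021287-7025285, chr1:15169636-15171909, chr1:24484487-24488463 and chr1:28522291-28527313, H3K4ac had 3, 2, 2 and 2 peaks. These 4 are the first by position of the 44 runs of 3.

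In a close pair, 1 peak of another list often reached across both H3K9ac peaks. A single H3K4ac peak overlapped both members of 562 of the 1431 pairs under 1 kb, or 39.3% (36.8 to 41.8%). It did so for 3 of the 6392 pairs of 1 to 5 kb and for none of the 18858 pairs over 5 kb. H3K27ac reached across 137 of the pairs under 1 kb, 9.57% (8.16 to 11.2%), and H3K27me3 across 69, 4.82% (3.83 to 6.06%). These shares depend on how the closest peaks are treated, and the caller's setting for joining them is not known. After H3K9ac peaks less than 200 bp apart were joined, a setting chosen after seeing the data, the share for H3K4ac was 15.2% (13.1 to 17.7%) of the remaining pairs under 1 kb. H3K4ac peaks were wider than H3K9ac peaks, with a median of 1180 bp compared with 888 bp, and the part of this width in the result was not tested.

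Scores were lower where a neighbour was close. Peaks with their nearest neighbour under 1 kb away numbered 2816 and had a median score of 104 (101 to 107). The 10570 peaks with a neighbour at 1 to 5 kb had a median of 124 (122 to 126). It was 150 (147 to 153) for the 12112 peaks at 5 to 20 kb and 149 (140 to 159) for the 1195 peaks whose nearest neighbour was over 20 kb away. The score thus levelled off beyond 5 kb, and peaks far from any other were not weaker. Both members of a pair followed this order, as the higher score of a pair had a median of 153 under 1 kb, 177 at 1 to 5 kb and 214 over 5 kb, and the lower score had medians of 74.6, 83.3 and 90.1. Median widths differed little between the classes of nearest distance, at 873, 907, 879 and 846 bp. The share of peaks overlapping H3K27me3 was 10.6% (9.50 to 11.8%), 9.39% (8.84 to 9.96%), 14.4% (13.8 to 15.1%) and 19.7% (17.6 to 22.1%) in the same order of classes, and was thus highest for the most isolated peaks. H3K4ac overlapped 86.3%, 85.4%, 85.1% and 81.3% of them.

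At the other end of the scale, 111 stretches of at least 100 kb had no H3K9ac peak. The count depends on the weaker peaks, as 307 such stretches were found when peaks scoring under 100 were left out. The 111 stretches lay on all 12 chromosomes and added up to 15.0 Mb. Chromosome 4 had 22 of them in 35.5 Mb and chromosome 8 had 16 in 28.4 Mb. Chromosomes 5 and 11 had 12 each in 30.0 and 29.0 Mb, and chromosome 12 had 11 in 27.5 Mb. By contrast, chromosome 1 had 2 in 43.3 Mb and chromosome 2 had 3 in 35.9 Mb. Chromosomes 3 and 9 had 4 each in 36.4 and 23.0 Mb. The centres of 90 of the 111 stretches lay between 20 and 70% of the extent of their chromosome, and only 5 lay beyond 70%. The other lists also had few peaks wholly inside these stretches. H3K4ac had 89 peaks there, or 5.92 per Mb, compared with 68.1 per Mb over all extents. H3K27ac had 15, or 0.998 per Mb compared with 24.9. H3K27me3 had 283, or 18.8 per Mb compared with 34.7, and H3K9me1 had 106, or 7.05 per Mb compared with 13.4. H3K9me3 came closest to its overall density, with 95 peaks or 6.32 per Mb compared with 7.93. No mark was denser inside the stretches than over all extents. Whether reads could be placed throughout these stretches was not tested, so a stretch without a peak is not shown to lack the mark.

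The longest stretch, chr6:18271377-18747237, was 475861 bp long and held no peak of H3K4ac, H3K27ac or H3K27me3, 1 of H3K9me1 and 2 of H3K9me3. The H3K9ac peaks at its borders were strong, with scores of 252 and 522. The second, chr7:11938940-12325185, was 386246 bp long and overlapped most of the sparsest bin of the list. It held 2 H3K9me1 peaks and no other. Next came chr12:17107964-17358043 with 250080 bp and chr8:13113559-13358803 with 245245 bp. They differed in what else was listed, as the stretch on chromosome 12 held 7 H3K27me3 peaks, 2 of H3K9me1 and 1 each of H3K4ac and H3K9me3, and that on chromosome 8 held no peak of any of the 5 other lists. The fifth to the ninth were chr12:13213151-13454738, chr11:12855557-13096743, chr4:9695866-9915505, chr8:12458681-12661733 and chr4:10706496-10901925, with lengths of 241588, 241187, 219640, 203053 and 195430 bp. Among them chr8:12458681-12661733 held 5 H3K9me3 peaks and no other. The tenth, chr5:15273878-15451317, was 177440 bp long, held 4 H3K9me1 and 4 H3K9me3 peaks, and began directly after a peak with a score of 1030. None of the 10 held an H3K27ac peak.

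H3K9ac peaks were of fairly uniform width. The median was 888 bp (884 to 892), 80% of the peaks lay between 591 and 1448 bp and 98% between 432 and 2602 bp, and the extremes were 221 and 7992 bp. The quartiles were 719 and 1114 bp. The median was narrowest on chromosome 12, at 855 bp (837 to 870), and widest on chromosome 1, at 917 bp (904 to 929). Chromosome 4 followed chromosome 1 with 913 bp (901 to 927). Peaks under 500 bp numbered 971, or 3.64% of the list and 1.68% of its covered bases. Those of at least 1500 bp made up 8.84% of the list and 17.9% of the covered bases.

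**Figure D4:**
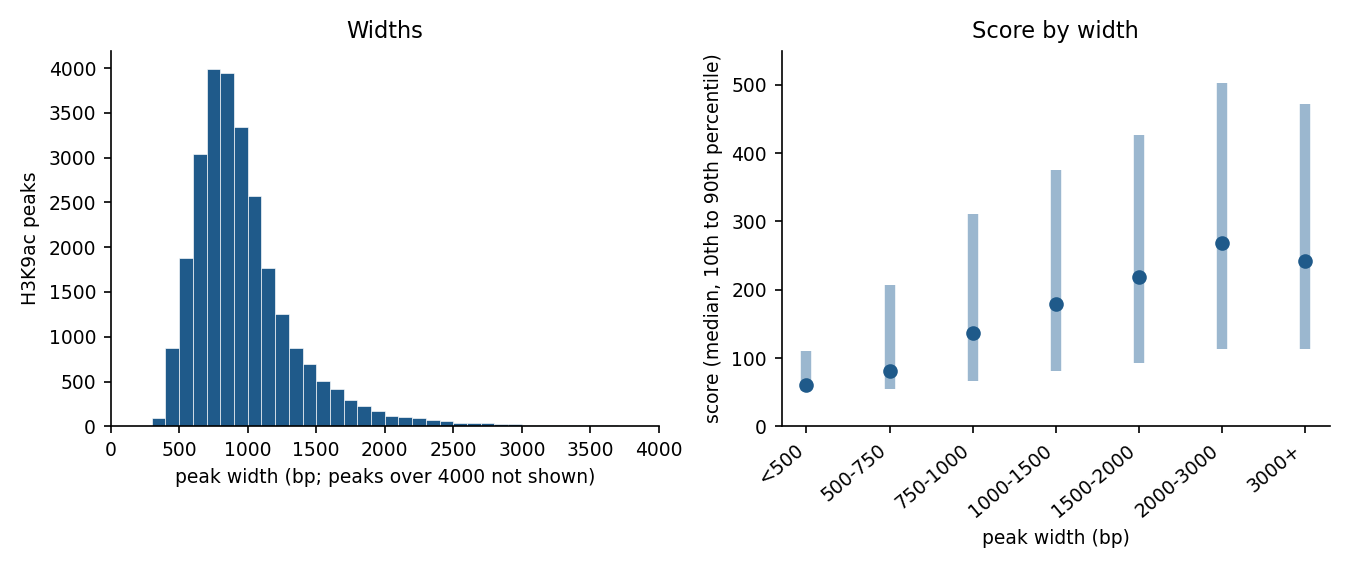
Left, histogram of H3K9ac peak widths in bp (vertical axis, number of peaks; the few over 4000 bp are not shown); right, median score (point) and its 10th to 90th percentile (bar) in 7 classes of width in bp. Median scores are 61.0 below 500 bp and 268 at 2000 to 3000 bp, and the bars of neighbouring classes overlap widely.

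Wider peaks had higher scores. Across peaks Spearman's rho of width and score was 0.50 (n = 26693), and both values come from the same reads. The median score was 61.0 below 500 bp, 80.8 at 500 to 750 bp, 137 at 750 to 1000 bp, 179 at 1000 to 1500 bp and 219 at 1500 to 2000 bp. It reached 268 (246 to 289) at 2000 to 3000 bp and was 242 (223 to 281) in the 142 peaks of at least 3000 bp, so that the widest class did not exceed the one before it. The share of peaks with an overlapping H3K4ac peak was 46.7% (43.5 to 49.8%) below 500 bp and 95.8% (91.1 to 98.0%) at 3000 bp and above. The share with H3K27ac was 7.62% (6.11 to 9.46%) in the narrowest class and 85.2% (78.4 to 90.1%) in the widest. A wider peak has more bases to be overlapped, and the share with H3K27me3 nevertheless ran the other way at the narrow end, with 21.8% (19.3 to 24.5%) below 500 bp, 15.0% (14.2 to 15.9%) at 500 to 750 bp and 10.7% (10.1 to 11.3%) at 750 to 1000 bp. In the 4 wider classes it was between 9.86 and 13.2%. Measured between edges, wider peaks lay nearer to another peak. The median distance to the nearest neighbour was 5862 bp (5574 to 6227) in the narrowest class, 5280 bp (5146 to 5386) at 500 to 750 bp, 4922 bp (4828 to 5021) at 750 to 1000 bp, 4794 bp (4679 to 4896) at 1000 to 1500 bp and between 4590 and 4745 bp in the 3 widest classes. A wider peak shortens such a distance by construction. Distances between midpoints were not compared by width, so closer placing of wider peaks is not shown.

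The widest peaks were not the highest-scoring ones. The widest, chr6:26941956-26949947, was 7992 bp wide, scored 59.5 and overlapped only H3K4ac. It was followed by chr3:31811296-31817465 with 6170 bp and a score of 193, chr3:2962548-2968140 with 5593 bp and a score of 223, chr7:14239082-14244617 with 5536 bp and a score of 112, and chr3:32653320-32658752 with 5433 bp and a score of 178. The peak on chromosome 7 lay in 1 of the sparsest bins and overlapped H3K27me3 and H3K9me1 but neither acetylation mark. The other 4 overlapped H3K4ac. The highest score, 1817, belonged to a 1966 bp peak at chr2:28715087-28717052, a place where all 5 other lists had a peak too. It was followed by chr11:12577722-12578639 with a score of 1098, chr5:15273115-15273877 with 1030, chr11:16200070-16202736 with 1024 and chr12:8611548-8612553 with 1021. These 4 overlapped H3K4ac and H3K27ac and none of the methylation marks, and 3 of them were 763 to 1006 bp wide, close to the median of the list.

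To see how the peaks themselves varied with the density around them, the full bins were ordered by their number of peaks and divided into 10 groups, each of 74 or 75 bins. Group 1 held the sparsest bins, with 3 to 21 peaks each and 1198 in all, and group 10 the densest, with 50 to 69 peaks each and 4072 in all. The covered share followed from this order, at 2.93% in group 1 and 11.4% in group 10. The median distance to the nearest neighbour was 8705 bp (7764 to 9240) in group 1 and 4047 bp (3923 to 4175) in group 10. This distance is tied to the number of peaks by construction. Median widths were 852.5 bp (834 to 867) in group 1 and 926 bp (914 to 935) in group 10, and median scores 150 (141 to 161) and 128 (124 to 132). Peaks in dense bins were therefore slightly wider and scored slightly lower. The share overlapping H3K4ac was 84.4% in group 1 and 86.8% in group 10, and the share overlapping H3K27ac 33.7% and 35.3%, so that the other acetylation marks accompanied H3K9ac about as often in sparse as in dense bins.

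**Figure D5:**
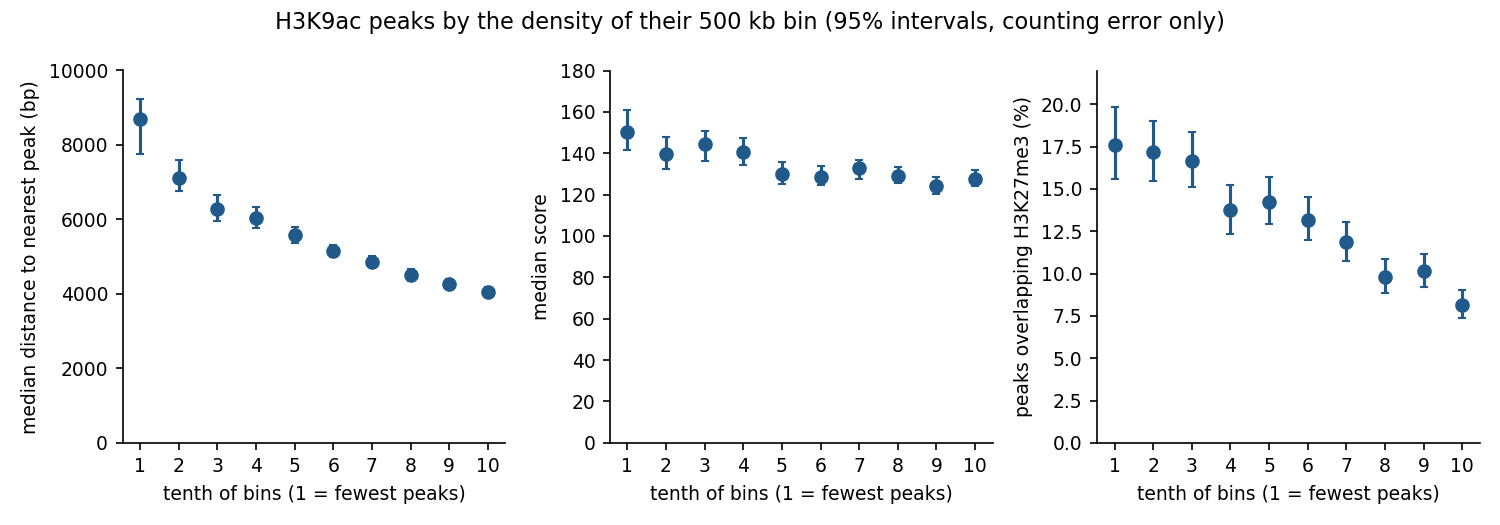
H3K9ac peaks in 10 groups of 500 kb bins ordered by their number of peaks (horizontal axis, 1 the sparsest), with 95% intervals that cover counting error only. Left, median distance to the nearest neighbour in bp; middle, median score; right, percentage of peaks overlapping H3K27me3, which is 17.6% in group 1 and 8.15% in group 10.

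H3K27me3 differed from the acetylation marks in this respect. It overlapped 17.6% (15.6 to 19.9%) of the H3K9ac peaks in group 1, 17.2%, 16.7%, 13.7% and 14.3% in groups 2 to 5, and 13.2%, 11.8%, 9.81%, 10.1% and 8.15% (7.35 to 9.03%) in groups 6 to 10. The shares with H3K9me1, 2.84% (2.04 to 3.94%) in group 1 and 1.33% (1.02 to 1.73%) in group 10, rest on few peaks. H3K27me3 itself covered 4.71% of the bases of the bins in group 1, 8.32% in group 7 and 6.43% in group 10. When all peaks were divided into 10 groups by score, H3K27me3 overlapped 23.8% (22.2 to 25.5%) of those with the lowest scores and 3.60% (2.95 to 4.37%) of those with the highest. Peaks scoring under 100 were then left out of both lists, and the bins were ranked anew by the H3K9ac peaks left. The shares by density were 9.50% (7.59 to 11.8%) in the bins then sparsest and 4.25% (3.55 to 5.09%) in those then densest. The part of score and of H3K27me3 coverage in the shares by density was not tested. The groups by density and by score, and this last setting, were chosen after seeing the data.

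The strongest peaks were found more often in sparse surroundings than the list as a whole. Of the 100 highest-scoring peaks, 69 (69.0%, 59.4 to 77.2%) lay in groups 1 to 5, compared with 36.4% (35.9 to 37.0%) of all peaks in full bins. Group 1 held 12 of the 100 and group 10 held 11, while these groups held 4.49% and 15.3% of the whole list. The 100 peaks had a median width of 1170 bp (1044 to 1297), and each overlapped both H3K4ac and H3K27ac. Their nearest H3K9ac neighbour was a median of 8024.5 bp away (6534 to 9567), compared with 5000 bp (4939 to 5054) for all peaks in full bins. Over the 10 groups by score the share in groups 1 to 5 was 38.4% in the lowest group and between 32.2 and 36.2% in the next 7, and it was 40.7% and 47.3% (45.4 to 49.2%) in the upper 2. The pattern was thus carried by the upper part of the scores. In the same order a neighbour under 1 kb away was found for 13.9% of the peaks with the lowest scores and for 4.01% of those with the highest.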

How the data were processed

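ChIP-seq libraries of 6 histone marks, 1 for each, were made from leaves of 2-week-old Nipponbare seedlings. The authors' processing notes name Bowtie, without a version, and the deposited lists name MACS 1.4. Depth, control library and caller settings are not given in the sources used here. The study names a TIGR rice release for its gene pairs and RNA-seq, but the build of the peak lists is not stated. The score in each deposited list is the caller's own value, and it was used only to describe, rank or filter peaks. The other values the authors deposited are the start and end of each peak, converted here to positions counted from base 1. Values of the H3K9ac list were computed from all peaks, with extents, bins, distances and intervals as defined in the text. The functions were tested on simulated lists.

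Places are named by position. They are the densest and sparsest 500 kb bins of each chromosome, the 5 bins with the most peaks or most covered bases, the longest sparse runs, the 10 longest stretches without a peak, the 5 longest runs of close peaks, and the 5 widest and 5 highest-scoring peaks. The 5 bins with the fewest peaks and the dense runs were added after their values were seen. The members, classes and comparisons were chosen with earlier results of these data known. Alternatives were a minimum score of 100, joining of peaks less than 200 bp apart, distances between midpoints, bins of 250 kb or 1 Mb, counting by peak start, keeping the last partial bin, and extents from the first to the last H3K9ac peak. No gene was named and no sequence read, since no genome known to match the lists was used. Python 3.11.15, numpy 2.4.6, pandas 2.3.3, scipy 1.17.1 and matplotlib 3.10.9 were used.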

Additional observations from a re-analysis of the deposited data

How the results depend on the processing

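With a score of at least 100, 16954 peaks were left, with a median width of 978 bp and a median distance of 12736.5 bp. The shares of pairs were then 2.39% under 1 kb, 14.3% at 1 to 5 kb and 83.3% over 5 kb, 4.77% of the peaks had a neighbour within 1 kb, 307 stretches of at least 100 kb had no peak, and the median bin held 22 peaks over 23124 bp. In peaks per Mb the order of the chromosomes was then 3, 2, 1, 7, 5, 6, 8, 4, 9, 10, 12 and 11, in place of 3, 1, 2, 6, 7, 5, 9, 4, 8, 10, 11 and 12. Peaks per Mb moved by over 1.5 times on 11 chromosomes, as fewer peaks were counted, while the 24 values per chromosome stayed within that factor when peaks were joined and with the other extents. Joining H3K9ac peaks less than 200 bp apart gave a median width of 896 bp, a median distance of 8368 bp, 3.56% of pairs under 1 kb, 72.0% over 5 kb and 7.03% of peaks with a close neighbour. Between midpoints the median distance was 9166.5 bp, and 1.27%, 20.3% and 78.4% of the pairs fell into the 3 classes. One bin was empty among bins of 250 kb, and 2 when the last partial bins were kept. In settings chosen after seeing the data, a score of at least 100 in all lists gave a median score of 154 for peaks with a neighbour under 1 kb and 203 for those over 5 kb, H3K27me3 at 9.50% of the peaks in the sparsest and 4.25% in the densest bins, and nearest neighbours at 16723 and 5826 bp in these bins. With H3K9ac peaks joined, 1 H3K4ac peak reached across 15.2% of the pairs under 1 kb, and the nearest neighbour in the densest bins was 4236 bp away. In each of these settings the bins were ranked anew by the H3K9ac peaks of that setting. The other results, including the covered length, the highest bin and the place of the 100 highest-scoring peaks, did not move beyond their interval or by 1.5 times. The first 2 were nevertheless lower with a score of at least 100. The covered length was then 18.5 Mb compared with 26.1 Mb, and the highest bin held 47 peaks compared with 69. The 100 highest-scoring peaks are the same peaks in that setting, so only the new ranking of bins could change their share. It was 64% in the sparser groups 1 to 5, and the share of all peaks left there was not taken. The unknown depth and caller threshold limit every count of weak peaks and every empty stretch. No replicate could be left out, and no paired analysis was possible because each mark has 1 library.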
